A study of Mus musculus with 12 samples.

Results

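The collagens of femoral head cartilage that lie outside the cartilage fibril were described in explants of mouse hip cartilage that were left untreated or were treated with IL-1α or retinoic acid. The members were all genes whose symbol on the array had the form of a collagen chain name (Col, a number, a, a number), after leaving out Col2a1, Col9a1, Col9a2, Col9a3, Col11a1 and Col11a2, the chains of the cartilage fibril, and Col10a1, the collagen of hypertrophic cartilage. The rule itself used no measured value, but it was set with earlier results of these data known. It gave 33 genes of 34509 symbols on the array, measured by 67 of 46632 probes. Of these, 27 genes had at least 1 probe that was detected often enough to be tested, and 6 had none.

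Collagens are triple helical proteins of the extracellular matrix. The fibril-forming types I, III, V, XXIV and XXVII assemble into fibrils, the fibril-associated collagens with interrupted triple helices (FACIT) bind to their surface, type IV builds the network of basement membranes, and type VI forms beaded filaments that in cartilage are concentrated in the pericellular matrix around each chondrocyte. The cartilage fibril itself is made of types II, IX and XI. The genes described here include those of the pericellular matrix and of the surrounding tissues of the joint, such as perichondrium, bone and vessels. Others, such as Col27a1 and Col16a1, belong to cartilage as well.

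The study asked which proteinases could cleave aggrecan in cartilage that lacks ADAMTS-4 and ADAMTS-5 activity, and used the contrast between IL-1α, a pro-inflammatory cytokine, and retinoic acid, the active form of vitamin A, both of which make cartilage lose its proteoglycan. All 12 arrays held RNA from 21-day-old TS-4/5∆cat mice, which carry in-frame deletions of the exons for the catalytic domains of Adamts4 and Adamts5, so no array represents wildtype cartilage. Hips, 4 per well by the labels, were kept in medium with serum for 24 h. They then received nothing, IL-1α at 10 ng/ml or retinoic acid at 10 µM for 3 days, and for these days the methods of the study describe serum-free medium. Each treatment had 4 arrays, numbered 1 and 2 in each of 2 batches.

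In the labels batch 1 came from a mouse line named Donut and batch 2 from a line named Gertrude, so batch and mouse line cannot be told apart. The sources mention 3 cultures or 3 unpooled mice per treatment, and do not say from which animals the 4 arrays came. The p-values therefore measure only the spread between these arrays, which may be partly technical. Both treatments were compared with the same 4 untreated arrays, so the 2 comparisons with untreated cartilage are not independent of each other.

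Values are log2 intensities after background correction and quantile normalization, n = 4 arrays per treatment, and differences between treatments are limma estimates on the log2 scale ± SE, adjusted for batch and replicate number. A gene was called when its p, adjusted by Benjamini-Hochberg over all 18200 tested probes, was under 0.05. Between 13786 and 19485 probes were detected per array (detection p under 0.05), the fewest on an IL-1α array and the most on an untreated array, and the lowest detected signal lay between 4.86 and 5.48. Levels of different genes were not compared, because they come from different probes. Between the batches, 76.3% of all tested probes were called, and 20 of 27 member collagens were. Col16a1 was higher in batch 2 by 2.08 ± 0.09 (adjusted p = 1.08e-11), Col5a2 by 2.02 ± 0.16 (adjusted p = 2.00e-08) and Col27a1 by 1.59 ± 0.13 (adjusted p = 2.66e-08), while Col20a1 differed by -1.02 ± 0.12 (adjusted p = 1.00e-06) and Col4a1 by -0.91 ± 0.15 (adjusted p = 5.17e-05) and were lower there. Values are therefore given for each batch.

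The cartilage identity of the tissue was visible in the untreated arrays, where Col2a1 was at 13.59 ± 0.39 (SD), Acan, which encodes aggrecan, at 13.26 ± 0.16 and Comp, an abundant cartilage glycoprotein, at 13.88 ± 0.14. The probes for Matn3, another cartilage matrix gene, were not detected on any array. Markers of bone, vessels and blood were also present. Ibsp, a bone matrix gene, was at 12.51 ± 0.34 and Hbb-b1, a haemoglobin chain of red cells, at 13.68 ± 0.32. RNA of blood was therefore measured along with that of cartilage. Which cells made the Ibsp RNA was not tested. Dmp1, also listed as an osteoblast marker, was not detected on any array.

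Most of the 27 tested collagens were lower after either treatment. With retinoic acid, 16 were called lower than untreated, against 17.1% of all tested probes, and 5 were called higher, against 18.2% of all probes, while 6 were not called. With IL-1α, 15 were called lower, against 14.1% of all probes, and 3 higher, against 15.2%, while 9 were not called. The median log2 difference of the 27 genes was -0.63 with retinoic acid and -0.54 with IL-1α, where the medians over all probes were both 0.02. Another model held neither batch nor replicate number, so that the spread between batches counted as error. It called 8 collagens lower with retinoic acid and 3 with IL-1α. No share of all probes is given for that model, so these 2 counts are only descriptive. In bulk tissue a smaller number of cells of one type and less RNA per cell cannot be told apart.

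The treatments overlapped in part in what they changed. Called lower with both were 10 genes, namely Col1a1, Col1a2, Col3a1, Col5a1, Col5a2, Col8a2, Col15a1, Col16a1, Col22a1 and Col27a1. The 5 genes called lower with retinoic acid and not called with IL-1α were Col6a1, Col6a2, Col6a3, Col12a1 and Col18a1. Col4a1 and Col4a2 were called lower with IL-1α and were not called with retinoic acid. Col4a5, Col4a6 and Col8a1 were called in opposite directions, higher with retinoic acid and lower with IL-1α. Col20a1 was called lower with retinoic acid and higher with IL-1α. Col7a1 was called higher with both, Col14a1 higher with retinoic acid alone and Col5a3 higher with IL-1α alone. Col17a1, Col23a1 and Col24a1 were called in neither comparison. Being called in one comparison and not in the other is no test of a difference, and for this the direct comparison of retinoic acid with IL-1α was used. In it, 7 collagens were called higher with retinoic acid, against 15.2% of all probes, and 10 lower, against 15.8%.

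**Figure D1:**
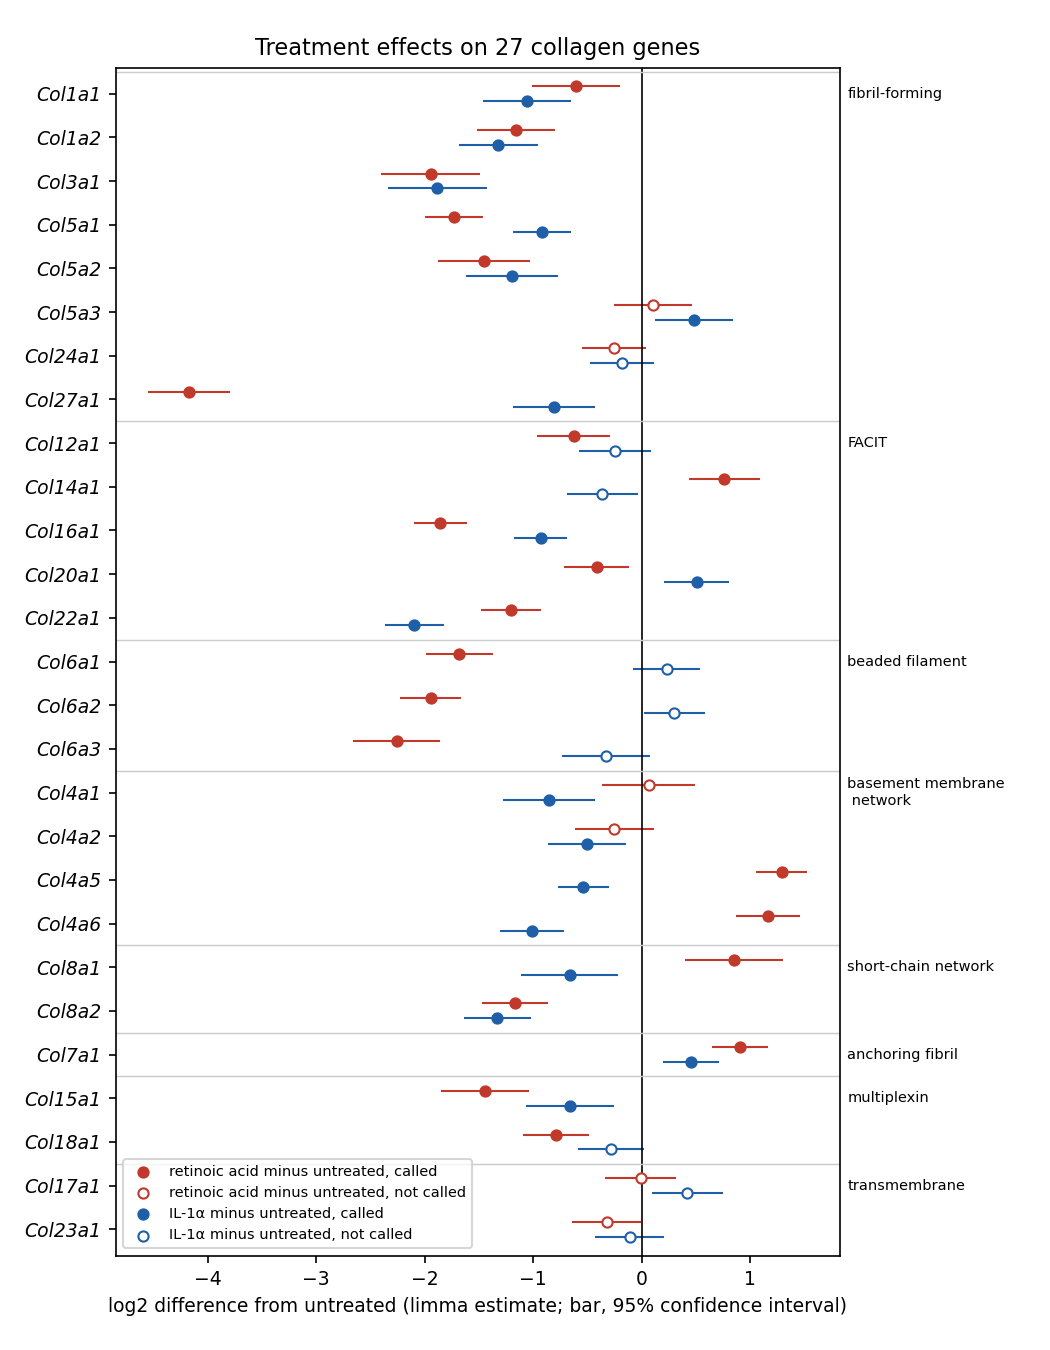
Log2 difference from untreated cartilage (x axis) of the 27 tested collagen genes, grouped by structural class, with retinoic acid (red) and IL-1α (blue); points are limma estimates from 4 arrays per treatment, bars are 95% confidence intervals and filled points were called at an adjusted p under 0.05. Col27a1 lies farthest to the left with retinoic acid, the 3 collagen VI genes are separated by treatment, and Col4a5, Col4a6 and Col8a1 lie on opposite sides of 0.

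The 3 chains of collagen VI, which are secreted together as one heterotrimer, fell together with retinoic acid and were not called with IL-1α. Col6a1 was at 12.90 and 13.02 (batch 1) and 13.30 and 13.55 (batch 2) without treatment, at 13.25 and 13.28 (batch 1) and 13.75 and 13.41 (batch 2) with IL-1α and at 11.20 and 10.99 (batch 1) and 11.97 and 11.87 (batch 2) with retinoic acid. The retinoic acid arrays lay below all others, and the difference from untreated was -1.68 ± 0.14 (adjusted p = 1.13e-06), a 3.21-fold decrease. Col6a2 read 10.26 and 10.54 (batch 1) and 10.39 and 10.78 (batch 2) untreated, 10.79 and 10.65 (batch 1) and 10.86 and 10.87 (batch 2) with IL-1α and 8.57 and 8.69 (batch 1) and 8.28 and 8.66 (batch 2) with retinoic acid. Again no retinoic acid array overlapped the other treatments, and the difference was -1.94 ± 0.13 (adjusted p = 1.31e-07). Col6a3 read 12.03 and 12.23 (batch 1) and 12.26 and 13.06 (batch 2) untreated, 11.53 and 11.61 (batch 1) and 12.64 and 12.47 (batch 2) with IL-1α and 9.62 and 9.71 (batch 1) and 10.90 and 10.32 (batch 2) with retinoic acid, with a difference of -2.26 ± 0.19 (adjusted p = 8.86e-07). For each of the 3 genes the exact two-sided permutation p of retinoic acid against untreated was 0.0286. This is the smallest that 4 arrays against 4 can give. The permutation test ignores batch. For some other genes called lower by limma with retinoic acid its p was larger, such as 0.171 for Col16a1 and 0.229 for Col1a1.

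With IL-1α, the 3 collagen VI genes differed from untreated by 0.23 ± 0.14 for Col6a1 (adjusted p = 0.250), 0.30 ± 0.13 for Col6a2 (adjusted p = 0.101) and -0.33 ± 0.19 for Col6a3 (adjusted p = 0.204). None of the 3 was called by limma, 1 of them, Col6a2, had an unadjusted p under 0.05, and the arrays of the treatments overlapped. The 95% confidence intervals of these differences were -0.08 to 0.54, 0.02 to 0.58 and -0.73 to 0.07. In the direct comparison, retinoic acid was lower than IL-1α for Col6a1 (-1.91 ± 0.14, adjusted p = 3.67e-07), for Col6a2 (-2.24 ± 0.13, adjusted p = 3.43e-08) and for Col6a3 (-1.93 ± 0.19, adjusted p = 4.08e-06).

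Listed chondrocyte markers were also lower with retinoic acid. All 6 of the 8 listed chondrocyte markers that could be tested (Col2a1, Acan, Sox9, Hapln1, Matn1 and Comp) were called lower with retinoic acid. Their median log2 difference was -2.79. With IL-1α 4 of 6 were called lower, with a median of -0.84. The log2 of their summed intensity was 15.76 to 15.89 untreated, 15.06 to 15.26 with IL-1α and 13.26 to 13.66 with retinoic acid. Matn3 was not detected on any array and Lect1 was not detected on enough arrays. The part of this shift in the result for collagen VI was not tested.

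Among the 8 fibril-forming collagens, 6 were called lower with each treatment, Col5a3 was called higher with IL-1α and Col24a1 was not called. The largest fall was that of Col27a1, a fibril-forming collagen made by chondrocytes. The gene lies on chromosome 4 between 63214009 and 63334991 (GRCm38.p6, plus strand), and its promoter window is shown because no other collagen here fell as far with retinoic acid. The window covers 250 bases before and 50 bases after an annotated start, chr4:63215162-63215461 on the plus strand of GRCm38.p6 from RefSeq, and the capitals mark GGGCGG, the GC box, on either strand.
Col27a1: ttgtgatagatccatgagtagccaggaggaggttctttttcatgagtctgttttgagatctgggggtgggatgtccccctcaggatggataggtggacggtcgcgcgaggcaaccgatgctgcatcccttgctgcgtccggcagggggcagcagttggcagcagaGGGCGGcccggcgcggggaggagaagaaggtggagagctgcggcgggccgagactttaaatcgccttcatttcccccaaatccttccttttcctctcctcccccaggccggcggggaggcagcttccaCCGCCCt

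Col27a1 read 8.86 and 8.74 (batch 1) and 10.84 and 10.52 (batch 2) in untreated cartilage and 8.024 and 8.001 (batch 1) and 9.90 and 9.81 (batch 2) with IL-1α. With retinoic acid it read 4.90 and 5.19 (batch 1) and 6.12 and 6.07 (batch 2), and both batch 1 arrays were not detected above background. Within each batch the order was untreated, IL-1α, retinoic acid, with no overlap. The difference from untreated was -4.17 ± 0.17 with retinoic acid (adjusted p = 2.02e-09), a fall of 18.0-fold whose size in batch 1 is limited by the background, and -0.81 ± 0.17 with IL-1α (adjusted p = 0.00388). A second probe gave -4.03 with retinoic acid and -1.31 with IL-1α, both called, and the dimmest gave -3.08, called, with retinoic acid and -0.93, not called, with IL-1α.

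Type I collagen, the main collagen of bone and tendon, is made of chains from Col1a1 and Col1a2. Col1a1 read 10.76 and 11.02 (batch 1) and 11.38 and 11.76 (batch 2) untreated, 10.22 and 10.02 (batch 1) and 10.24 and 10.24 (batch 2) with IL-1α and 9.98 and 10.11 (batch 1) and 11.12 and 11.29 (batch 2) with retinoic acid. The IL-1α arrays were all below the untreated arrays, whereas the retinoic acid arrays of batch 2 overlapped the untreated arrays of batch 1. The difference was -1.05 ± 0.19 with IL-1α (adjusted p = 0.00113) and -0.61 ± 0.19 with retinoic acid (adjusted p = 0.0225). The call with retinoic acid was lost (adjusted p from 0.0778 to 0.0994 and log2 difference from -0.56 to -0.46) when untreated array 2 of either batch or either retinoic acid array of batch 1 was left out. Col1a2 read 6.80 and 6.79 (batch 1) and 8.15 and 8.29 (batch 2) untreated, 5.56 and 5.63 (batch 1) and 6.80 and 6.77 (batch 2) with IL-1α and 5.05 and 5.70 (batch 1) and 7.22 and 7.43 (batch 2) with retinoic acid, where the first array of batch 1 was below detection. In both batches it was lower with IL-1α (-1.32 ± 0.17, adjusted p = 8.79e-05) and with retinoic acid (-1.16 ± 0.17, adjusted p = 1.33e-04).

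Types III and V accompany type I in its fibrils, type III in compliant tissues and type V as the collagen that initiates and limits them. Col3a1 read 6.86 and 6.76 (batch 1) and 7.39 and 8.98 (batch 2) untreated, 5.28 and 4.61 (batch 1) and 6.06 and 6.52 (batch 2) with IL-1α and 4.76 and 4.76 (batch 1) and 6.38 and 6.32 (batch 2) with retinoic acid. All treated arrays lay below all untreated arrays, and the batch 1 arrays of both treatments were below detection, so the batch 1 differences have only a lower bound in size. The differences were -1.88 ± 0.21 with IL-1α (adjusted p = 3.25e-05) and -1.94 ± 0.21 with retinoic acid (adjusted p = 1.10e-05). Between retinoic acid and IL-1α the difference was -0.06 ± 0.21 (adjusted p = 0.861), with a 95% confidence interval from -0.52 to 0.39.

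Col5a1 read 11.54 and 11.62 (batch 1) and 12.07 and 12.37 (batch 2) untreated, 10.81 and 10.85 (batch 1) and 11.14 and 11.12 (batch 2) with IL-1α and 9.81 and 9.87 (batch 1) and 10.54 and 10.46 (batch 2) with retinoic acid. The 3 treatments did not overlap on any array, and the order was untreated, IL-1α, retinoic acid. The difference from untreated was -0.92 ± 0.12 with IL-1α (adjusted p = 1.39e-04) and -1.73 ± 0.12 with retinoic acid (adjusted p = 2.39e-07), and retinoic acid was lower than IL-1α (-0.81 ± 0.12, adjusted p = 2.36e-04). Col5a2 read 7.16 and 6.57 (batch 1) and 8.21 and 9.10 (batch 2) untreated, 5.35 and 5.27 (batch 1) and 7.82 and 7.80 (batch 2) with IL-1α and 5.33 and 5.52 (batch 1) and 7.04 and 7.34 (batch 2) with retinoic acid. It fell within each batch, but the batches were so far apart that treated arrays of batch 2 overlapped untreated arrays of batch 1, and 3 of the 4 treated arrays of batch 1 were below detection. Its differences were -1.20 ± 0.20 with IL-1α (adjusted p = 6.29e-04) and -1.45 ± 0.20 with retinoic acid (adjusted p = 7.50e-05).

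Col5a3, the third chain of type V, was near background, and detected on 2 of 4 untreated arrays, 3 of 4 IL-1α arrays and 1 of 4 retinoic acid arrays. It was called higher with IL-1α (0.48 ± 0.17, adjusted p = 0.0448), but this call was lost (adjusted p from 0.0516 to 0.186 and log2 difference from 0.32 to 0.53) when any untreated array, IL-1α array 1 or 2 of batch 1, IL-1α array 2 of batch 2 or retinoic acid array 2 of batch 2 was left out. Col24a1, a minor fibril-forming collagen of bone, was detected in batch 2 and not in batch 1, and differed from untreated by -0.26 ± 0.14 with retinoic acid (adjusted p = 0.167) and -0.18 ± 0.14 with IL-1α (adjusted p = 0.341).

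Listed markers of bone and of tendon or perichondrium mostly moved with these genes, and which cells made their RNA was not tested. The 3 osteoblast markers tested of 6 listed (Ibsp, Sp7 and Phex) were called lower with both treatments. The log2 of the summed osteoblast list was 12.84 to 13.06 untreated, 10.44 to 11.65 with IL-1α and 10.56 to 10.93 with retinoic acid, and Dmp1 was not detected on any array. Of 6 tendon and perichondrial markers, 4 were tested (Scx, Tnmd, Dpt and Mkx). All 4 were called lower with retinoic acid and 3 of them with IL-1α, whereas Scx was at 6.49 untreated and 6.72 with IL-1α. The summed level of the list was 9.27 to 9.53 untreated, 8.25 to 8.70 with IL-1α and 8.08 to 8.64 with retinoic acid. Postn and Thbs4 were not detected on any array. Adipoq, the one testable fat marker of 4, and Tnnt3, 1 of 2 tested muscle markers, were also called lower with both treatments. The part of these shifts in the results for the fibril-forming collagens was not tested.

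**Figure D2:**
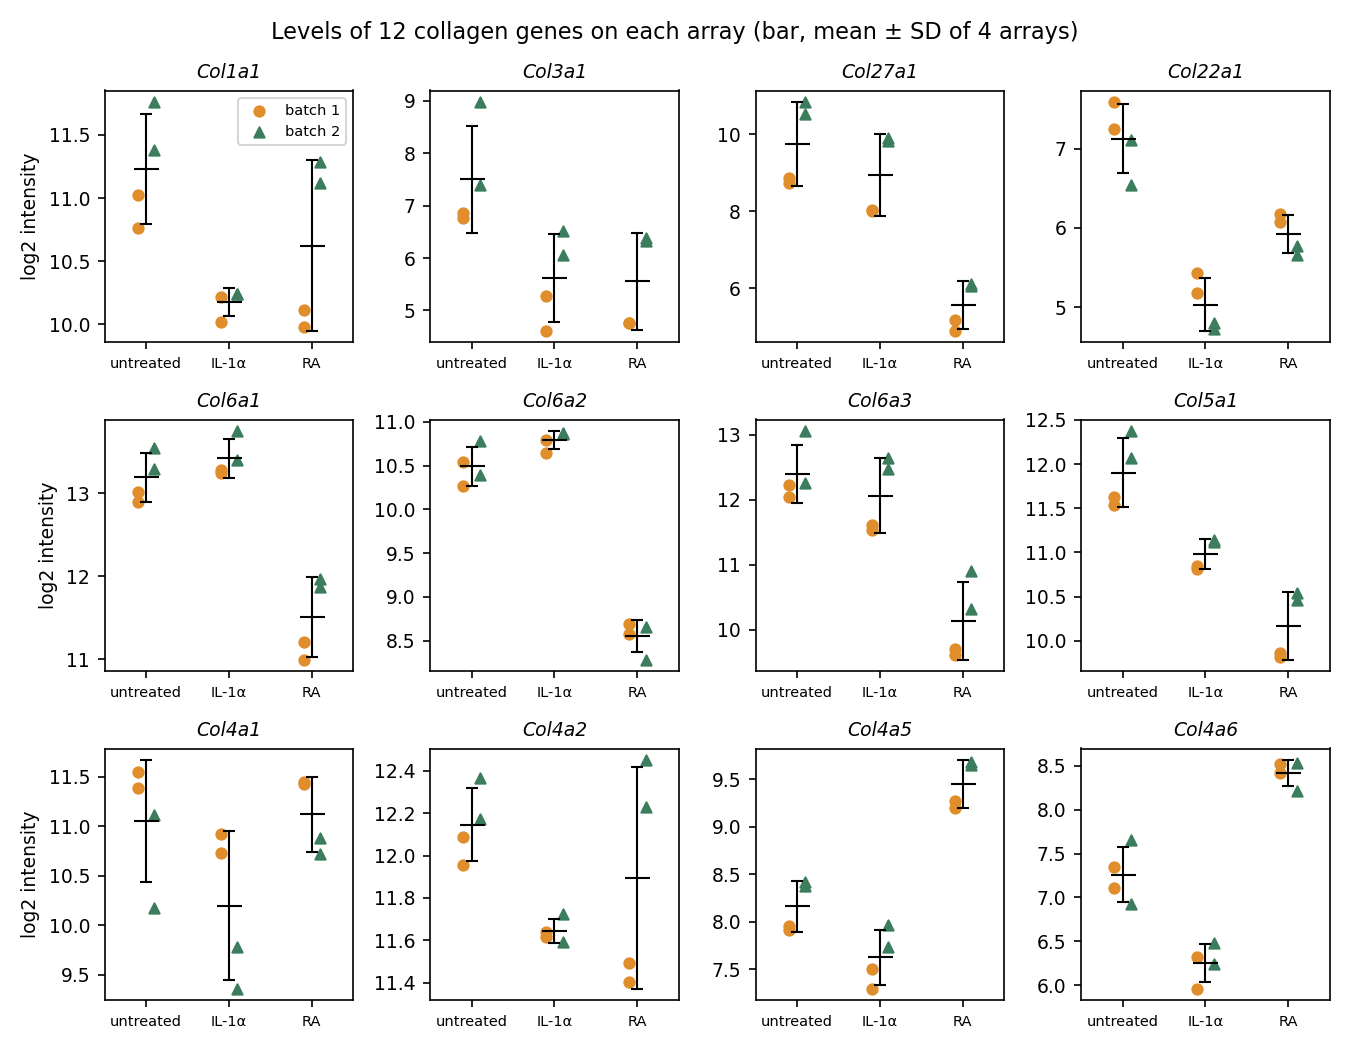
Log2 intensity (y axis) of 12 collagen genes on each of the 12 arrays, by treatment (RA, retinoic acid); circles are batch 1, triangles are batch 2, and the bar is the mean ± SD of the 4 arrays of a treatment. The y axes differ between genes and do not start at 0. The retinoic acid arrays stand below all others for Col27a1 and the 3 collagen VI genes and above all others for Col4a5 and Col4a6.

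The array held 6 FACIT collagens, of which 5 were tested, and each of these was called in the comparison of retinoic acid with untreated cartilage, 4 lower and 1 higher. Col16a1, found in the matrix of cartilage and skin, read 10.38 and 10.34 (batch 1) and 12.19 and 12.41 (batch 2) untreated, 9.41 and 9.22 (batch 1) and 11.45 and 11.52 (batch 2) with IL-1α and 8.44 and 8.38 (batch 1) and 10.57 and 10.52 (batch 2) with retinoic acid. Pooled over batches the treatments overlapped, since batch 2 was higher throughout, but within each batch they did not. Against untreated the difference was -1.85 ± 0.11 with retinoic acid (adjusted p = 5.36e-08) and -0.93 ± 0.11 with IL-1α (adjusted p = 5.75e-05).

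Col22a1, a collagen of tissue junctions such as that between muscle and tendon, read 7.59 and 7.26 (batch 1) and 6.54 and 7.12 (batch 2) untreated and 6.07 and 6.17 (batch 1) and 5.66 and 5.78 (batch 2) with retinoic acid, a difference of -1.21 ± 0.13 (adjusted p = 8.46e-06). It was not detected on any of the 4 IL-1α arrays, where it read 5.43 and 5.18 (batch 1) and 4.72 and 4.80 (batch 2). With IL-1α it was therefore at least 3.67-fold lower than untreated (adjusted p = 1.67e-07), and retinoic acid was at least 1.59-fold above IL-1α (adjusted p = 1.33e-04). By the brightest probe of each gene, Col22a1 was the only tested collagen with no detected array in a treatment. Other tested probes of Col14a1, Col4a6 and Col8a1 were also not detected on any IL-1α array. The folds given for Col22a1 are lower limits, computed from the mean log2 level of the group with signal. For the 4 IL-1α arrays, the faintest signal that still counted as detected was used.

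Col12a1 and Col14a1 encode related FACIT collagens of the surface of type I fibrils, and they moved in different directions with retinoic acid. Col12a1 read 7.51 and 7.18 (batch 1) and 7.66 and 8.64 (batch 2) untreated, 7.11 and 7.15 (batch 1) and 7.79 and 7.96 (batch 2) with IL-1α and 6.66 and 6.64 (batch 1) and 7.60 and 7.59 (batch 2) with retinoic acid. It was called lower with retinoic acid (-0.63 ± 0.15, adjusted p = 0.00641) and was not called with IL-1α (-0.25 ± 0.15, adjusted p = 0.252) or between the treatments (-0.38 ± 0.15, adjusted p = 0.0802). The retinoic acid call was lost in batch 2 alone (adjusted p = 0.145) and with scaling to one median (adjusted p = 0.0945). Col14a1 read 6.13 and 5.88 (batch 1) and 5.65 and 5.25 (batch 2) untreated, 5.46 and 5.49 (batch 1) and 5.27 and 5.24 (batch 2) with IL-1α and 6.51 and 6.34 (batch 1) and 6.50 and 6.60 (batch 2) with retinoic acid. All retinoic acid arrays lay above all others, by 0.76 ± 0.15 against untreated (adjusted p = 0.00154) and by 1.12 ± 0.15 against IL-1α (adjusted p = 7.80e-05). With IL-1α the brightest probe of Col14a1 was not called (-0.36 ± 0.15, adjusted p = 0.0878), whereas its second probe was called lower (-1.42 ± 0.24). The second probe was not detected on any IL-1α array, so the size of its fall is limited by the background.

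Col20a1, another FACIT collagen, read 8.16 and 8.31 (batch 1) and 7.45 and 6.70 (batch 2) untreated, 8.54 and 8.70 (batch 1) and 7.74 and 7.68 (batch 2) with IL-1α and 7.74 and 7.72 (batch 1) and 6.75 and 6.76 (batch 2) with retinoic acid. The treatments overlapped when both batches were pooled. IL-1α was higher than untreated by 0.51 ± 0.14 (adjusted p = 0.0151) and retinoic acid lower (-0.41 ± 0.14, adjusted p = 0.0323), and between the treatments retinoic acid was lower (-0.92 ± 0.14, adjusted p = 1.97e-04). Leaving out IL-1α array 2 of batch 2 ended the first call (adjusted p = 0.0545 and log2 difference 0.43). The second was lost (adjusted p from 0.0659 to 0.112 and log2 difference from -0.43 to -0.33) without either untreated or either retinoic acid array of batch 1, or without array 1 of batch 2 of either of these groups.

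Type IV collagen builds the network of basement membranes. Of its 6 genes, Col4a3 and Col4a4 were not detected, and the other 4 were each called lower with IL-1α, while with retinoic acid Col4a5 and Col4a6 were called higher and Col4a1 and Col4a2 were not called. These genes are arranged as pairs that start close to each other on opposite strands. The starts used for the promoter windows of Col4a1 and Col4a2 on chromosome 8 are 21 bases apart, and those of Col4a6 and Col4a5 on chromosome X are 1343 bases apart. The promoter windows of the second pair, 250 bases before to 50 bases after each start from RefSeq (GRCm38.p6), are shown because both of its genes moved in opposite directions with the 2 treatments. Capitals mark the GC box GGGCGG and the CCAAT box on either strand, with Col4a6 at chrX:141474027-141474326 on the minus strand and Col4a5 at chrX:141475169-141475468 on the plus strand.
Col4a6: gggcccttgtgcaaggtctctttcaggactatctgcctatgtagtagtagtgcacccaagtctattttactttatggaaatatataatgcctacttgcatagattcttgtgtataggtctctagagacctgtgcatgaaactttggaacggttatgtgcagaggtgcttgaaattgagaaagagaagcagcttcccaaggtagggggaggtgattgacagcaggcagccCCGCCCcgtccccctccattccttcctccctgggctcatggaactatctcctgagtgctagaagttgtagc
Col4a5: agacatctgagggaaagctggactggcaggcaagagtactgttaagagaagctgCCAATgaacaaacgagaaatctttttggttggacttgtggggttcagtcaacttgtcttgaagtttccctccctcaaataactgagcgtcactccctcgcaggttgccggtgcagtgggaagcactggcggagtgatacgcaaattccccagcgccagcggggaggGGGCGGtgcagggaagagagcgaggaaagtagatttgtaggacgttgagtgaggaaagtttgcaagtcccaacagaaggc

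Col4a5 read 7.91 and 7.95 (batch 1) and 8.42 and 8.37 (batch 2) untreated, 7.50 and 7.30 (batch 1) and 7.97 and 7.73 (batch 2) with IL-1α and 9.20 and 9.27 (batch 1) and 9.68 and 9.65 (batch 2) with retinoic acid. Every retinoic acid array lay above every other array, and within each batch every IL-1α array lay below the untreated arrays. The difference from untreated was 1.29 ± 0.11 with retinoic acid (adjusted p = 1.06e-06) and -0.54 ± 0.11 with IL-1α (adjusted p = 0.00269). Col4a6 read 7.34 and 7.10 (batch 1) and 6.93 and 7.66 (batch 2) untreated, 5.96 and 6.32 (batch 1) and 6.24 and 6.48 (batch 2) with IL-1α and 8.52 and 8.42 (batch 1) and 8.22 and 8.53 (batch 2) with retinoic acid, and its 3 treatments did not overlap on any array. Its differences were 1.16 ± 0.14 (adjusted p = 2.38e-05) and -1.01 ± 0.14 (adjusted p = 1.53e-04). Retinoic acid exceeded IL-1α 3.54-fold for Col4a5 and 4.51-fold for Col4a6.

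Col4a1 and Col4a2 encode the chains found in nearly all basement membranes. Col4a1 read 11.38 and 11.55 (batch 1) and 10.17 and 11.11 (batch 2) untreated, 10.73 and 10.92 (batch 1) and 9.78 and 9.36 (batch 2) with IL-1α and 11.45 and 11.42 (batch 1) and 10.88 and 10.72 (batch 2) with retinoic acid. Within each batch the IL-1α arrays were the lowest, and the difference was -0.85 ± 0.20 (adjusted p = 0.00610) with IL-1α and 0.06 ± 0.20 (adjusted p = 0.834) with retinoic acid. Col4a2 read 12.09 and 11.95 (batch 1) and 12.17 and 12.37 (batch 2) untreated, 11.64 and 11.62 (batch 1) and 11.72 and 11.59 (batch 2) with IL-1α and 11.49 and 11.40 (batch 1) and 12.45 and 12.23 (batch 2) with retinoic acid. With IL-1α it was lower (-0.50 ± 0.17, adjusted p = 0.0382), a call lost (adjusted p from 0.101 to 0.127 and log2 difference from -0.48 to -0.39) without untreated array 1 of batch 1, untreated array 2 of either batch or one of the batch 2 arrays with IL-1α. With retinoic acid the Col4a2 arrays were the lowest of their batch in batch 1 and not in batch 2 (-0.25 ± 0.17, adjusted p = 0.274).

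With IL-1α several vessel markers were lower, as type IV collagen was, but not all. Of 6 endothelial markers tested, Pecam1, Cdh5 and Emcn were called lower with IL-1α, and with retinoic acid 1 (Emcn) was called higher and none lower. Kdr was at 6.54 untreated and 6.69 with IL-1α. Tie1 and Tek were near background already without treatment, at 5.10 and 5.04, each detected on 2 of 4 untreated arrays. They were not detected on any IL-1α array and were not called lower. The summed level of the 6 endothelial markers was 10.92 to 11.21 untreated, 9.89 to 10.28 with IL-1α and 11.05 to 11.29 with retinoic acid. The 3 markers of smooth muscle and pericytes that were tested of 5 (Acta2, Rgs5 and Pdgfrb) were called lower with IL-1α, and with retinoic acid Pdgfrb was called higher and Rgs5 lower. The sum of that list was 11.45 to 11.64 untreated, 10.00 to 10.95 with IL-1α and 11.91 to 12.24 with retinoic acid, and Myh11 and Des were not detected on any array. The part of these cell types in the results for type IV collagen was not tested.

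Type VIII collagen forms short-chain networks, for example under the endothelium, and its 2 chains separated with retinoic acid. Col8a1 read 6.56 and 6.78 (batch 1) and 7.46 and 7.48 (batch 2) untreated, 6.23 and 6.42 (batch 1) and 6.21 and 6.77 (batch 2) with IL-1α and 7.29 and 7.26 (batch 1) and 8.70 and 8.44 (batch 2) with retinoic acid. Retinoic acid was the highest treatment within each batch, and was called above untreated (0.85 ± 0.21, adjusted p = 0.00622). IL-1α was lower (-0.66 ± 0.21, adjusted p = 0.0294), a call that was lost (adjusted p from 0.0598 to 0.108 and log2 difference from -0.70 to -0.40) without any 1 of the 4 untreated arrays or without one of the batch 2 arrays with IL-1α. Col8a2 read 6.40 and 6.65 (batch 1) and 7.70 and 7.57 (batch 2) untreated, 4.80 and 5.22 (batch 1) and 6.37 and 6.60 (batch 2) with IL-1α and 5.39 and 5.30 (batch 1) and 6.22 and 6.74 (batch 2) with retinoic acid, with 3 of the 4 treated arrays of batch 1 below detection. Within each batch it was lower with IL-1α (-1.33 ± 0.14, adjusted p = 2.27e-05) and with retinoic acid (-1.17 ± 0.14, adjusted p = 3.21e-05).

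Col7a1, which encodes the collagen of the anchoring fibrils that tie epithelial basement membranes to the tissue below, was close to background. It was detected on 1 of 4 untreated arrays and on all 4 arrays of each treatment. It read 5.29 and 5.12 (batch 1) and 4.98 and 4.78 (batch 2) untreated, 5.86 and 5.63 (batch 1) and 5.19 and 5.30 (batch 2) with IL-1α and 6.27 and 6.25 (batch 1) and 5.57 and 5.69 (batch 2) with retinoic acid, higher than untreated by 0.91 ± 0.12 with retinoic acid (adjusted p = 5.84e-05) and with IL-1α (0.46 ± 0.12, adjusted p = 0.0118). Retinoic acid was also called above IL-1α (0.45 ± 0.12, adjusted p = 0.0107), and this last call was lost without retinoic acid array 2 of batch 1 (adjusted p = 0.0508 and log2 difference 0.39).

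The multiplexins, types XV and XVIII, are proteoglycan collagens of basement membrane zones, and type XVIII carries the fragment endostatin at its end. Col15a1 read 8.05 and 8.13 (batch 1) and 7.83 and 7.88 (batch 2) untreated, 7.77 and 7.75 (batch 1) and 6.94 and 6.81 (batch 2) with IL-1α and 6.40 and 6.47 (batch 1) and 6.46 and 6.78 (batch 2) with retinoic acid. The 3 treatments did not overlap, with differences from untreated of -1.45 ± 0.19 with retinoic acid (adjusted p = 5.46e-05) and -0.66 ± 0.19 with IL-1α (adjusted p = 0.0189). The IL-1α call was lost (adjusted p from 0.0543 to 0.0720 and log2 difference from -0.67 to -0.46) without untreated array 2 of either batch or without one of the batch 2 arrays with IL-1α. Col18a1 lay between 9.63 and 10.10 on untreated arrays and between 8.82 and 9.27 on retinoic acid arrays, lower (-0.79 ± 0.14, adjusted p = 7.24e-04), and differed with IL-1α by -0.28 ± 0.14 (adjusted p = 0.150). Retinoic acid was below IL-1α (-0.50 ± 0.14, adjusted p = 0.0150), a call lost (adjusted p from 0.0541 to 0.0733 and log2 difference from -0.47 to -0.41) without any 1 of the batch 1 arrays of these treatments.

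Of the 4 transmembrane collagens, Col17a1, the collagen of hemidesmosomes, and Col23a1 could be tested, and neither was called against untreated cartilage by limma, although each had an unadjusted p under 0.05 in 1 of the 2 comparisons. Col17a1 differed by -0.01 ± 0.15 with retinoic acid (adjusted p = 0.971) and 0.42 ± 0.15 with IL-1α (adjusted p = 0.0508). Col23a1 differed by -0.32 ± 0.15 with retinoic acid (adjusted p = 0.108) and -0.11 ± 0.15 with IL-1α (adjusted p = 0.611). It was detected on all untreated arrays and on no batch 2 array of either treatment. Its batch 2 differences are therefore limited by the background. Between the treatments Col17a1 was called lower with retinoic acid (-0.43 ± 0.15, adjusted p = 0.0442), and that call was lost (adjusted p from 0.0566 to 0.173 and log2 difference from -0.46 to -0.33) without any 1 of 7 arrays, untreated array 2, both IL-1α arrays and retinoic acid array 2 of batch 1, and IL-1α array 1 and both retinoic acid arrays of batch 2.

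The remaining 6 of the 33 collagens could not be tested. Col4a3 and Col4a4, the chains of the kidney filtration barrier, Col13a1, a transmembrane collagen, and Col19a1, a FACIT collagen, were not detected on any array with their brightest probe. Col25a1, a transmembrane collagen of nerve cells, was detected on 1 untreated and 1 retinoic acid array, and Col28a1, a collagen of peripheral nerve, on 3 untreated arrays. The differences in these 6 genes were not tested.

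Several collagens had more than 1 tested probe, which gave an internal check. For all 10 such genes every probe had the same sign with retinoic acid, and for 9 every probe had the same call, Col8a1 being the exception, where the dimmer probe was not called (0.25 ± 0.26). With IL-1α the signs were the same for 8 and the calls for 4. Probes of Col6a2 and Col6a3 pointed in different directions with IL-1α. A dim probe of Col6a1 and a dim probe of Col6a3 were called higher with IL-1α, by 0.59 ± 0.20 and 0.46 ± 0.16, where the brightest probes were not called. The dimmer probes of Col4a6 (-0.28 ± 0.19) and of Col8a1 (-0.65, adjusted p = 0.0816) were not called with IL-1α.

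**Figure D3:**
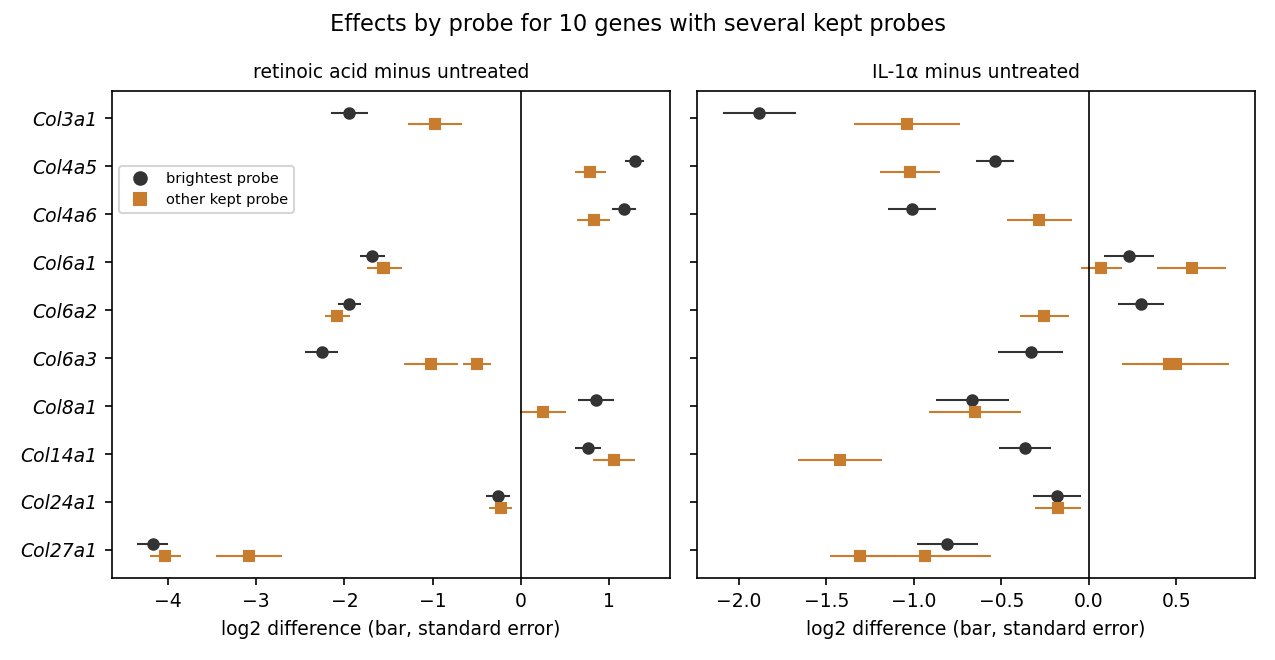
Log2 difference from untreated (x axis) for every tested probe of the 10 collagen genes with more than 1, with retinoic acid (left) and IL-1α (right); circles are the brightest probe of each gene, squares the others, and bars are standard errors from limma. With retinoic acid every probe of a gene lies on the same side of 0, and with IL-1α the probes of Col6a2 and Col6a3 lie on both sides.

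The effects of each treatment against untreated cartilage were then compared between the batches. For retinoic acid, 24 of 27 collagens had the same sign in both batches and for IL-1α 26 of 27. With the brightest probe of each gene, limma's interaction test called none of the 27 with either treatment, where 2.86% of all probes were called for retinoic acid and 4.82% for IL-1α. At an unadjusted p under 0.05 there were 3 with retinoic acid and 4 with IL-1α. No share of all probes is given for this threshold or for the signs, so these counts are only descriptive. Leaving out untreated array 1 of batch 2 gave 1 call for retinoic acid (Col14a1), and leaving out untreated array 2 of batch 2 gave 1 call for retinoic acid (Col27a1) and 1 for IL-1α (Col5a2). Dimmer probes did give calls. For retinoic acid these were 1 probe each of Col27a1 (effect in batch 2 minus that in batch 1 -2.11 ± 0.25, adjusted p = 3.13e-04), Col3a1 (-1.42 ± 0.20, adjusted p = 0.00116) and Col6a3 (-1.80 ± 0.32, adjusted p = 0.00573). For IL-1α they were 1 probe each of Col3a1 (-1.96 ± 0.20, adjusted p = 8.09e-05) and Col8a1 (-1.24 ± 0.26, adjusted p = 0.0160).

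For retinoic acid against IL-1α the effect differed between batches for 5 of 27 collagens, against 8.76% of all probes. Col1a1 differed by -0.07 in batch 1 and 0.97 in batch 2 (difference 1.04 ± 0.23, adjusted p = 0.0127), and Col4a2 by -0.18 and 0.68 (difference 0.86 ± 0.21, adjusted p = 0.0179). Both thus changed sign, with retinoic acid above IL-1α only in batch 2. Col8a1 differed by 0.95 in batch 1 and 2.08 in batch 2 (difference 1.14 ± 0.26, adjusted p = 0.0131). Col15a1 differed by -1.32 and -0.25 (difference 1.07 ± 0.21, adjusted p = 0.00526), and Col27a1 by -2.97 and -3.76 (difference -0.79 ± 0.22, adjusted p = 0.0360), where the batch 1 value is limited by the background. These 3 kept their sign in both batches and changed in size. The number called fell to 2 without either batch 1 array with IL-1α or array 1 of either batch with retinoic acid, and to 3 without IL-1α array 2 of batch 2 or array 2 of either batch with retinoic acid. Dimmer probes of Col27a1 and Col8a1 were also called, as were dimmer probes of Col4a6 (1.00 ± 0.22, adjusted p = 0.0116) and Col6a3 (-1.25 ± 0.32, adjusted p = 0.0253), whose brightest probes were not.

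**Figure D4:**
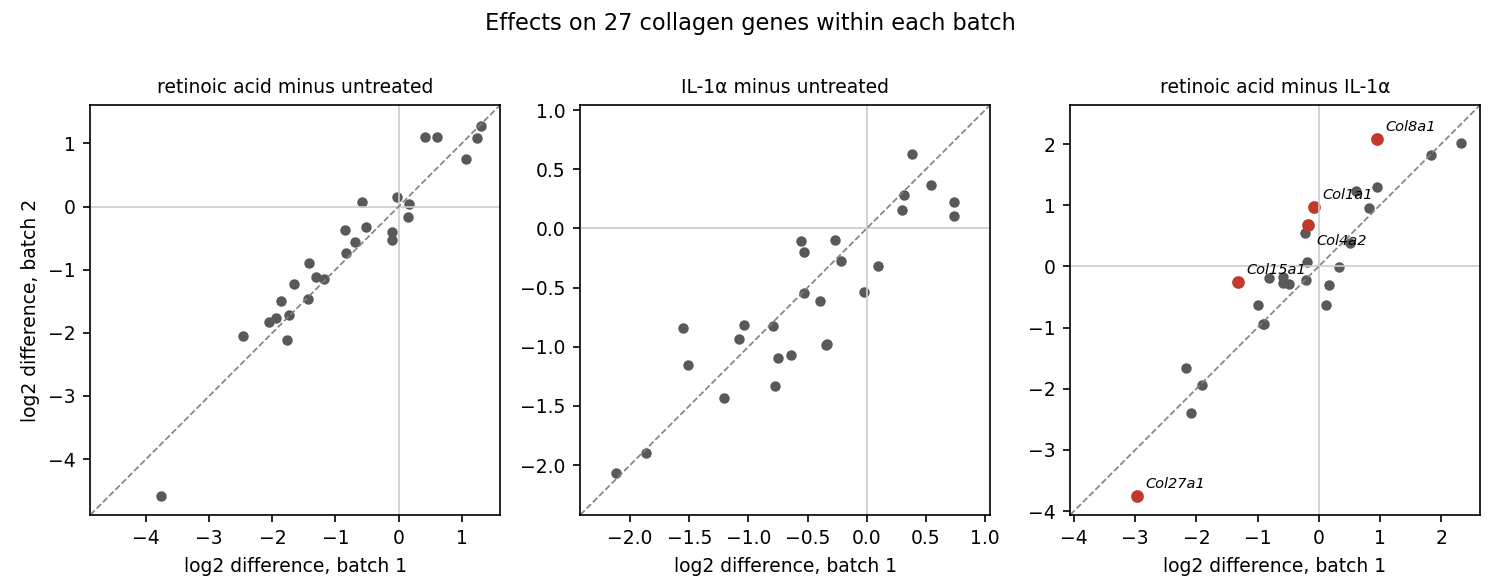
Log2 difference within batch 1 (x axis) against that within batch 2 (y axis) for the 27 tested collagens in each of the 3 comparisons; each point is a gene, the dashed line marks equal effects, and red points were called in the interaction test. Points of retinoic acid against untreated lie along the dashed line, and the 5 red points appear in the comparison of retinoic acid with IL-1α.

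The promoter windows of the members were searched for short motifs as a description. The RefSeq promoter table used here (GRCm38.p6, 250 bases before to 50 after the start) matched 22 of the 27 tested genes by symbol, in 24 windows, and Col1a1, Col5a2, Col12a1, Col14a1 and Col22a1 are named only. The GC box GGGCGG, read on both strands, was in 16 of the 24 windows and in 35.7% of all 32851 windows in the table, and CCAAT in 9 of 24 and in 37.4%. AGGTCA, the half-site bound by retinoic acid receptors among other nuclear receptors, was in 4 of 24 windows, those of Col7a1, Col20a1, Col23a1 and Col24a1, and in 16.3% of all windows. The variant AGTTCA was in 2 of 24, one of Col6a2 and that of Col6a3, and in 14.0% of all windows. Direct repeats were searched with a wider half-site, which also allows GGGTCA and GGTTCA. With spacers of 1, 2 or 5 bases they were in no member window and in 0.222%, 0.268% and 0.0974% of all windows. Neither of the printed windows of Col4a5 and Col4a6 nor that of Col27a1 held AGGTCA or AGTTCA. The Col4a5 window did hold GGTTCA, which the wider pattern of the repeats also allows. A match is only a match of letters, and a window without one says nothing about sites elsewhere.

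Collagen chains are modified, folded, exported and trimmed by a shared set of proteins. The gene list used here covered these steps and also cross-linking, collagen receptors and regulators such as Tgfb1. Of its 45 genes, 38 were tested. With retinoic acid 23 were called lower, against 17.1% of all probes, and 6 higher, against 18.2%, with a median log2 difference of -0.45. With IL-1α 18 were called lower, against 14.1%, and 3 higher, against 15.2%, with a median of -0.35. In the direct comparison 12 were called higher with retinoic acid, against 15.2% of all probes, and 15 lower, against 15.8%.

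Enzymes that act on the chains inside the cell were mostly lower. All 8 tested genes for prolyl hydroxylation, which stabilizes the triple helix, were called lower with retinoic acid and 5 of 8 with IL-1α. Leprel1, a prolyl 3-hydroxylase, fell from 9.11 ± 0.50 (SD) untreated to 6.40 ± 0.22 with retinoic acid (-2.71 ± 0.20, adjusted p = 2.99e-07) and differed by -0.65 ± 0.20 with IL-1α (adjusted p = 0.0274). Of 6 genes for lysyl hydroxylation and glycosylation, 5 were called lower with retinoic acid. Glt25d2, a collagen galactosyltransferase, fell from 10.55 ± 0.37 to 7.21 ± 0.30 with retinoic acid (-3.34 ± 0.11, adjusted p = 3.49e-10), and Plod2, a lysyl hydroxylase, from 10.21 ± 1.11 to 8.60 ± 0.95 (-1.61 ± 0.16, adjusted p = 4.13e-06). Serpinh1, the collagen chaperone of the endoplasmic reticulum, was lower with retinoic acid (-0.41 ± 0.11, adjusted p = 0.0119) and with IL-1α (-0.39 ± 0.11, adjusted p = 0.0190). The chondrocyte list given above moved in the same direction, and its part in these results was not tested.

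Genes for the steps outside the cell were more divided. Pcolce2, an enhancer of the proteinase that removes the C-propeptide, fell from 11.60 ± 1.07 untreated to 9.36 ± 1.27 with IL-1α (-2.25 ± 0.12, adjusted p = 7.04e-08) and 6.79 ± 1.30 with retinoic acid (-4.81 ± 0.12, adjusted p = 6.53e-11). Its relative Pcolce fell with IL-1α (-2.07 ± 0.12, adjusted p = 1.19e-07) and was not called with retinoic acid (0.28 ± 0.12, adjusted p = 0.0873). Bmp1, the proteinase itself, rose with retinoic acid (0.79 ± 0.11, adjusted p = 1.01e-04). Among cross-linking enzymes, Lox rose with both treatments, by 0.45 ± 0.15 with retinoic acid (adjusted p = 0.0351) and 0.61 ± 0.15 with IL-1α (adjusted p = 0.00976). Loxl1 rose with retinoic acid from 9.67 ± 0.15 to 11.35 ± 0.10 (1.67 ± 0.13, adjusted p = 6.61e-07), and Loxl4 fell with both (-1.10 ± 0.14 with retinoic acid and -1.62 ± 0.14 with IL-1α). Tll1, Tll2 and Adamts14 were not detected on any array.

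Receptors for collagen also differed in direction. Mrc2, an endocytic receptor that takes up collagen, rose with retinoic acid from 10.36 ± 0.66 to 11.83 ± 0.22 (1.47 ± 0.16, adjusted p = 1.43e-05) and fell with IL-1α (-0.55 ± 0.16, adjusted p = 0.0230). Itga11, a collagen-binding integrin chain of mesenchymal cells, rose with retinoic acid (1.05 ± 0.22, adjusted p = 0.00199), and Itga10, the corresponding chain of chondrocytes, fell with both treatments (-0.36 ± 0.13 with retinoic acid, adjusted p = 0.0465, and -0.77 ± 0.13 with IL-1α, adjusted p = 7.60e-04). Ddr1, a receptor tyrosine kinase for collagen, fell with retinoic acid (-1.10 ± 0.12, adjusted p = 1.06e-05) and rose with IL-1α (0.57 ± 0.12, adjusted p = 0.00322), so retinoic acid was below IL-1α (-1.67 ± 0.12, adjusted p = 2.29e-07).

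**Figure D5:**
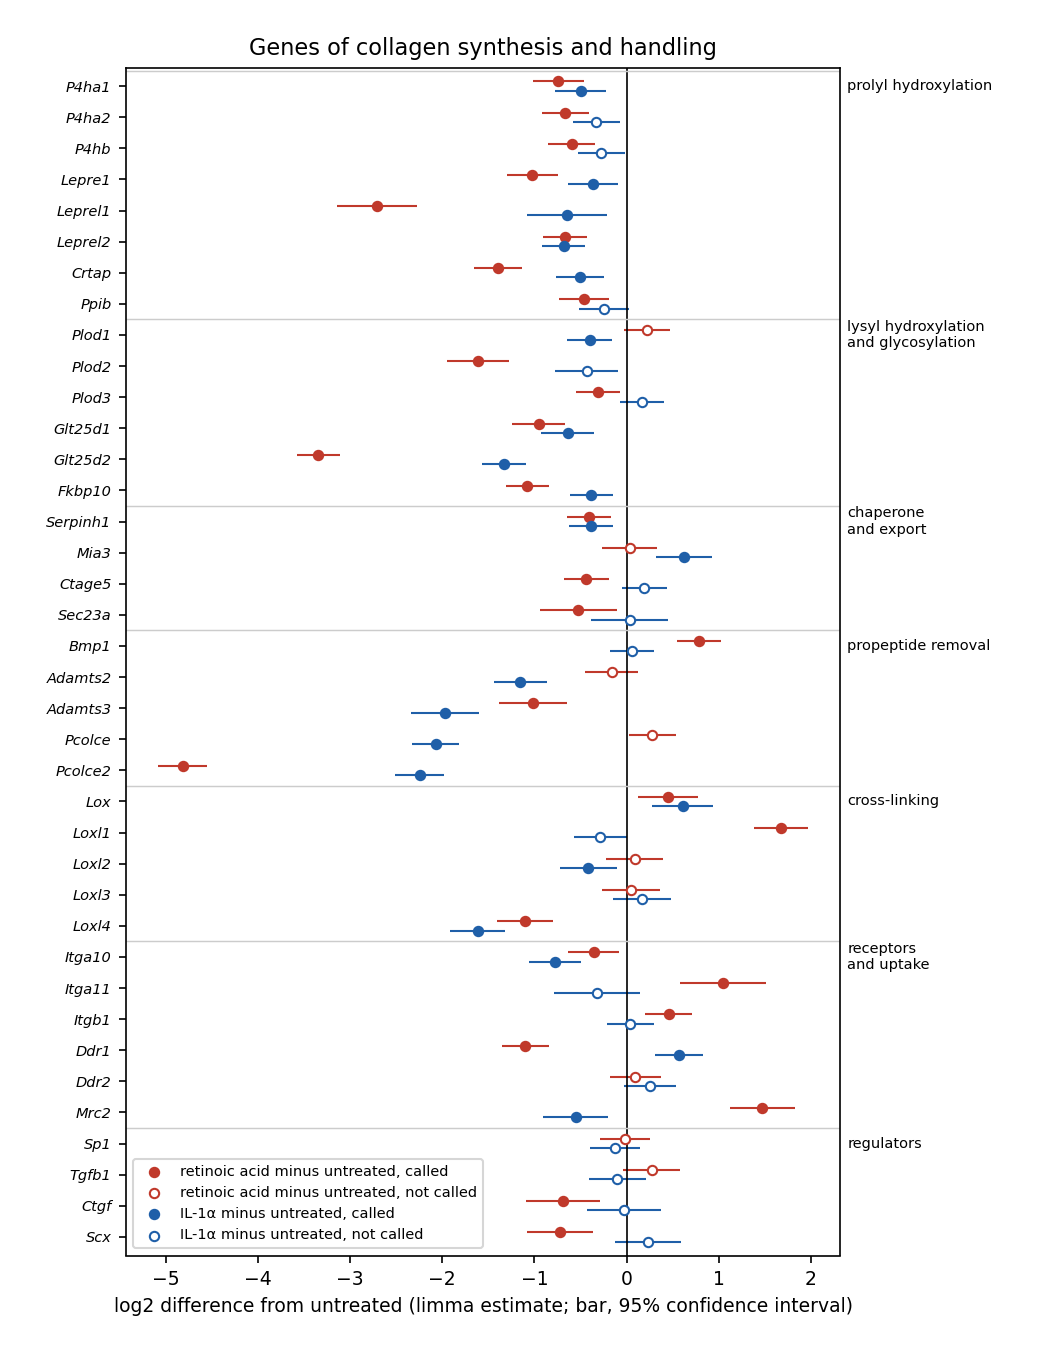
Log2 difference from untreated (x axis) of 38 genes of collagen synthesis and handling, grouped by step, with retinoic acid (red) and IL-1α (blue); points are limma estimates from 4 arrays per treatment, bars are 95% confidence intervals and filled points were called. All 8 genes of prolyl hydroxylation lie left of 0 with both treatments, while Loxl1, Mrc2 and Itga11 lie to the right with retinoic acid.

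For comparison, 6 of the 7 collagens left out by the choice of members were called lower with retinoic acid. The differences were -1.42 ± 0.19 for Col2a1, -2.89 ± 0.17 for Col9a1, -2.31 ± 0.13 for Col9a2, -2.83 ± 0.23 for Col11a1, -1.69 ± 0.13 for Col11a2 and -1.99 ± 0.13 for Col10a1, while Col9a3 was near background (-0.19 ± 0.12, adjusted p = 0.263). With IL-1α 5 of the 7 were called lower, namely Col9a1 (-1.19 ± 0.17, adjusted p = 2.25e-04), Col9a2 (-0.99 ± 0.13, adjusted p = 1.19e-04), Col11a1 (-0.82 ± 0.23, adjusted p = 0.0181), Col11a2 (-1.02 ± 0.13, adjusted p = 1.03e-04) and Col10a1 (-1.71 ± 0.13, adjusted p = 9.32e-07). Col2a1 (-0.20 ± 0.19, adjusted p = 0.468) and Col9a3 (-0.02 ± 0.12, adjusted p = 0.917) were not called with IL-1α. No test of the member collagens against this group was made.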

How the data were processed

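RNA of 12 hip explant samples had been hybridised as biotinylated cRNA to Illumina mouse bead arrays. The authors deposited probe intensities, neither background-corrected nor normalized, and per probe and array a detection score. The score rose with intensity, so its difference from 1 served as detection p. The bead summary software is not given in the sources used here. Following the methods of the study, intensities were corrected and quantile-normalized with neqc (offset 16) in limma 3.58.1 (R 4.3.3). A probe was kept if its detection p was under 0.05 in 4 or more of the 12 arrays (18200 of 46632 were). A gene was represented by its brightest kept probe. The limma model held treatment and, as in the methods, a 4-level factor combining batch with replicate number, with Benjamini-Hochberg adjustment over all kept probes. Other models tested the interaction of treatment with batch and the difference between batches, and single genes had a two-sided exact permutation test. The treatment and interaction models were tested on simulated data with known changes. Array number limits the precision.

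Given array by array were members called and past 1.5-fold in at least 1 of 3 comparisons, up to 20 by size, and Col1a1, Col1a2, Col3a1, Col6a1, Col6a2 and Col12a1. Col4a2 was added after its values were seen, as partner of Col4a1. Members and lists were chosen with earlier results of these data known. Same-numbered arrays of a batch correlated between -0.11 and 0.39 in their deviations from the group mean, so they did not clearly deviate together, but the factor from the methods still blocks them as pairs. The fit without it is among the alternatives. Alternatives covered background correction, normalization, offset, filter, probe, model and arrays. Promoter windows were read from RefSeq with Python 3.11.15, and figures were drawn with matplotlib 3.10.9.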

Additional observations from a re-analysis of the deposited data

Results flagged for a closer look

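In the IL-1α group, Col1a1 on array 2 of batch 1 lay apart from the other 3 arrays, at a log2 intensity of 10.02, with a gap to its neighbour of 0.893 of the whole range, past the 95% limit of Dixon's test for 4 samples. It was 1 of 81 groups of arrays examined, and chance puts about 1 in 20 past this limit.

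The difference between retinoic acid and IL-1α was not the same in the batches for 5 collagens by limma's interaction test. The log2 difference in batch 2 minus that in batch 1 was 1.07 for Col15a1, 1.04 for Col1a1, 0.86 for Col4a2 and 1.14 for Col8a1, and -0.79 for Col27a1. Mouse line and batch cannot be told apart here.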

How the results depend on the processing

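For the 56 called gene comparisons, 25 other settings gave 1378 values, of which 1257 stayed called, 121 lost the call and 0 changed direction. No share of all probes is given for the other settings, so the counts of collagens under them are only descriptive. Most calls were lost with neither batch nor replicate number in the model (30), where retinoic acid against untreated gave 8 collagens lower, IL-1α 3 lower and 0 higher, and retinoic acid against IL-1α 6 lower. Keeping only probes detected on all 12 arrays, which tested fewer genes, left 3 higher with retinoic acid against untreated and 4 against IL-1α. Collagens called higher with IL-1α numbered 1 with scaling to one median, 1 with a detection p under 0.01 and 0 in batch 2 alone, and the cause was not tested. Scaling to one median moved the median of all probes for retinoic acid against untreated from 0.02 to 0.14, and left 12 collagens lower with retinoic acid and 10 with IL-1α. It ended 14 calls, among them Col12a1 (adjusted p = 0.0945) and Col18a1 (0.0856) with retinoic acid and Col4a1 (0.0630) and Col4a5 (0.0618) with IL-1α. Effects of retinoic acid against untreated differed between batches for 2 collagens with normalization within each batch (Col14a1 and Col27a1), 2 with an offset of 50 (Col27a1 and Col4a2) and 1 without background correction (Col27a1). Without the replicate block the counts were 5 higher and 16 lower with retinoic acid, 3 and 15 with IL-1α, and 7 and 9 for retinoic acid against IL-1α, where Col17a1 lost its call, and the interaction counts with the replicate block were 0, 0 and 5. Leaving out 1 array at a time gave 5 to 5 higher and 14 to 16 lower with retinoic acid, 2 to 3 higher and 12 to 15 lower with IL-1α, 6 to 8 higher and 8 to 11 lower for retinoic acid against IL-1α, and 0 to 1, 0 to 1 and 2 to 6 interactions in these comparisons.

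Signal over background limited the low genes. In 11 of the 27 tested collagens at least 1 array was below detection, and a difference of such a gene is smaller on the log2 scale than the true one may be. Each treatment had 4 arrays, 2 in each batch, of 1 genotype, and whether they came from separate animals is not stated.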
